A study of Mus musculus with 10 samples.

Results

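The chemokine system of murine pancreatic tumors was described across 10 tumors by the level of 56 genes, 35 chemokine ligands and 21 chemokine receptors. These are the protein-coding genes of the normalized count table named Ccl, Cxcl, Ccr, Cxcr or Ackr with a number, together with Cx3cl1, Cx3cr1, Xcl1, Pf4 and Ppbp, that had a mean of at least 1 normalized count over the 10 tumors. Of 61 genes with such names 5 stayed under this mean. Ccl26, Ccl27b and Ccl21b were listed at 0 in every tumor, and Ccl19 and Ccr1l1 had reads in CTRL tumors only. The 56 genes are part of 24560 genes that reached the same mean and of 55359 genes in the table. All tumors grew from KPC K8484, a luciferase-expressing line of murine pancreatic ductal adenocarcinoma (PDAC) cells, which was implanted into the pancreas of immunocompetent C57BL/6 mice (C57BL/6J in the methods of the study) of about 10 weeks. The titles of the labels call the tumors PDX, while their source field names KPC K8484 cells. The CTRL group, 5 tumors in columns N1, N2, N4, N5 and N6, came from normoglycemic mice that drank regular water. The D30 group, 5 tumors in columns T1, T2, T4, T5 and T7, was taken, as the only other columns and the only other group, to come from mice made hyperglycemic with drinking water that held 30% dextrose, given for 14 days. The labels name no other treatment and do not give the sex of each mouse. For orthotopic experiments the methods of the study state that both sexes were used in equal numbers. Both groups model a single cell line, and the labels' replicate numbers do not match the column numbers, so that tumors are named here by their column.

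Chemokines are small secreted proteins that attract leukocytes along a gradient by binding receptors of the G protein-coupled family. CC and CXC ligands are named for the spacing of their conserved cysteines. CXC ligands with a Glu-Leu-Arg (ELR) motif before the cysteines attract neutrophils through Cxcr2, while Ccl2 attracts monocytes through Ccr2. Cxcl9 and Cxcl10 are induced by interferon and attract Cxcr3-bearing T and NK cells. Atypical receptors bind chemokines without G protein signaling and clear or transport them. In pancreatic cancer, recruitment of neutrophils through Cxcr2 and of monocytes through Ccr2 is a well known feature of the stroma.

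Many inflammatory chemokine genes lie side by side in the genome and are transcribed in response to NF-kappaB. Stretches upstream of the start of 5 of these genes are shown because their levels in single tumors dominated the data described below. They were read 5′ to 3′ on the strand of the gene from RefSeq (GRCm38.p6), from 150 to 31 bases before the annotated start. Capitals mark matches to the NF-kappaB consensus on either strand, which in Cxcl2 and Cxcl3 overlap each other, and in Ccl9 matches to TATAAA on either strand.
Cxcl2 (chr5:90903749-90903868, plus strand): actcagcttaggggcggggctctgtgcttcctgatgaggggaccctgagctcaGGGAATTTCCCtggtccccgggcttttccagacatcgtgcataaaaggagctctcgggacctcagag
Cxcl3 (chr5:90785951-90786070, plus strand): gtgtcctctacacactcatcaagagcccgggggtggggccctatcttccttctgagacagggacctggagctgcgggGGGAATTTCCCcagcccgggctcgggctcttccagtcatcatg
Ccl3 (chr11:83649409-83649528, minus strand): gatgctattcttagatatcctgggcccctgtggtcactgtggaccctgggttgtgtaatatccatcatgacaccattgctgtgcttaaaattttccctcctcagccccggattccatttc
Ccl6 (chr11:83593118-83593237, minus strand): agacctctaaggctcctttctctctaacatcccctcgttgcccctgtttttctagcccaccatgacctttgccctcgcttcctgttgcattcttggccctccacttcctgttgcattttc
Ccl9 (chr11:83578667-83578786, minus strand): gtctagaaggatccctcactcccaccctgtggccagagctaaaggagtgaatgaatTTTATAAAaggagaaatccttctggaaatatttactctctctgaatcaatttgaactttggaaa
The matches in Cxcl2 span 97 to 87 bases before the start and those in Cxcl3 span 73 to 63 bases before it. In Ccl9 the NF-kappaB match lies 35 to 26 bases before the start and so runs past the stretch shown. The stretches of Ccl3 and Ccl6 held no match to these letters. RefSeq windows of 300 bases (250 before to 50 after the start) were at hand for 43 of the 56 genes, 47 windows in all, and 12 of them (25.5%) held the NF-kappaB consensus, where 8.46% of all 32851 windows did. The genes with a match were Cxcl1, Cxcl2, Cxcl3, Cxcl10, Ccl1, Ccl9, Ccl20, Ccl27a, Ccr1, Ccr3, Ccr6 and Ackr2. TATAAA was present in 27.7% of the member windows and 13.6% of all windows, and the AP-1-like TGANTCA in 17% and 7.81%. The STAT-like TTCNNNGAA was present in 6.38% and 8.3%, and the core of the interferon response element (2 GAAA repeats 2 bases apart) in 4.26% and 3.44%. These matches describe letters in a window and do not show that a factor binds there.

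Levels are the authors' normalized counts, in which the reads of each tumor were divided by its size factor. Recovered reads numbered 29915331 to 42122304 per CTRL tumor and 29192261 to 37126175 per D30 tumor, and the 56 genes took 0.0408% to 0.257% of them. Differences between D30 and CTRL were tested with limma on log2(normalized count + 1) over all 24560 genes with Benjamini-Hochberg adjustment, and a gene was called at an adjusted p under 0.05. On this scale the fold changes of genes with few counts come out too small, and p values set the difference between groups against the spread of these 10 tumors within groups.

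Of the 56 genes 1 was called, Ccl28, which was higher in D30 tumors. This is 1.79% of the genes, where 1.4% of all genes tested were called higher and 1.36% lower. No member was called lower by limma. With edgeR on the recovered reads 1 of 44 members tested was called higher (2.27%, where 2.67% of all genes were) and 0 lower, where 1.46% of all genes were. With DESeq2 8 of 52 were called higher (15.4%, where 4.89% of all genes were) and 3 lower (5.77%, where 3.41% were), together 21.2% of the members and 8.3% of all genes. An unadjusted p under 0.05 was found for 18 of the 56 genes (32.1%), where 17.3% of all genes had one. Of these 7 were higher (12.5%, where 7.79% of all genes were) and 11 lower (19.6%, where 9.54% were). The values of the groups did not overlap for 4 genes (7.14%), where this held for 6.19% of all genes. Ccl28 was on the higher side (1.79%, where 2.87% of all genes were) and Ccl8, Cxcr3 and Cx3cr1 on the lower side (5.36%, where 3.32% were). The median log2 fold change was -0.17 over the 56 genes and -0.06 over all genes tested. Ligands had a median of -0.07, with 17 higher and 18 lower, and receptors had a median of -0.49, with 6 higher and 15 lower. Of the 56 genes 33 were lower (58.9%), where 54.7% of all genes were, and 23 were higher (41.1%, where 45.3% were). The direction of the members' median turned with edgeR (0.14 over 44 members), with DESeq2 (0.07) and without the CTRL tumor N1, where it was close to 0. The median over all genes was 0.043 with edgeR, 0.0089 with DESeq2 and -0.07 without N1.

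**Figure D1:**
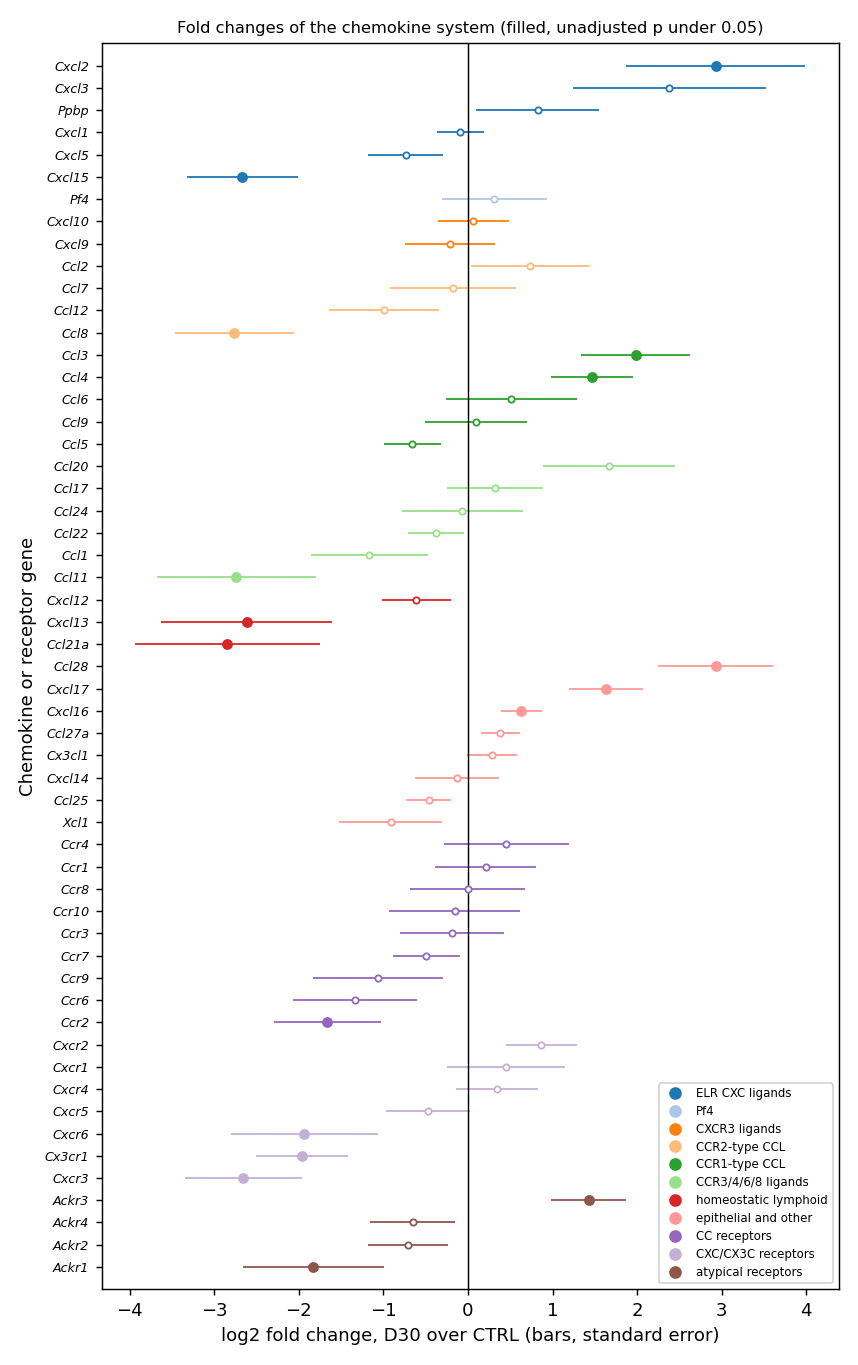
Log2 fold change of D30 over CTRL tumors on the log2(normalized count + 1) scale (horizontal axis) for 55 of the 56 genes (vertical axis), with bars for the standard error and colors for the role. The 17 genes with filled points had an unadjusted p under 0.05, 7 of them to the right of 0 and 10 to the left.

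The levels of the chemokine genes were uneven between D30 tumors. Summed over the 56 genes, CTRL tumors had 27496, 21665, 20497, 15028 and 18061 normalized counts (in the order N1, N2, N4, N5, N6, kept below). The D30 tumors had 13824, 17303, 110257, 36896 and 18534 (in the order T1, T2, T4, T5, T7, kept below). T4 thus stood far above all other tumors and T5 above all but T4, while T1, T2 and T7 lay among or below the CTRL tumors. In T4 60.6% of the sum was Ccl6, which made up 10.4% to 27.1% in the other tumors. In T5 35.9% of the sum was Cxcl2 and Cxcl3, which together made up 0.283% to 2.28% elsewhere. The ligands that were over 4 times higher in T4 than in any other tumor numbered 5, namely Ccl2 (10.1 times the next tumor), Ccl6 (8.20), Pf4 (6.18), Ccl7 (6.01) and Ccl9 (4.19). That is 8.93% of the 56 genes, where 0.603% of all genes stood over 4 times above every other tumor in T4. In T5 this held for 3 ligands, Ccl3 (6.02), Cxcl2 (5.72) and Cxcl3 (4.69), which is 5.36% where 1.93% of all genes did. The bound of 4 times was chosen after these values were seen. T4 was the highest of the 10 tumors for 18 of the 56 genes (32.1%, where T4 was highest for 24.3% of all genes) and T5 for 9 (16.1%, where T5 was highest for 18.9% of all genes). T5 was also the lowest for 18 and was listed at 0 for 11. Among CTRL tumors N1 was highest of the 10 for 14 genes. The shares of all genes for the lowest values and zeros of T5 and for N1 were not computed. These counts are thus not read as a trait of the chemokine genes, and T5 had reads of fewer genes than any other tumor.

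**Figure D2:**
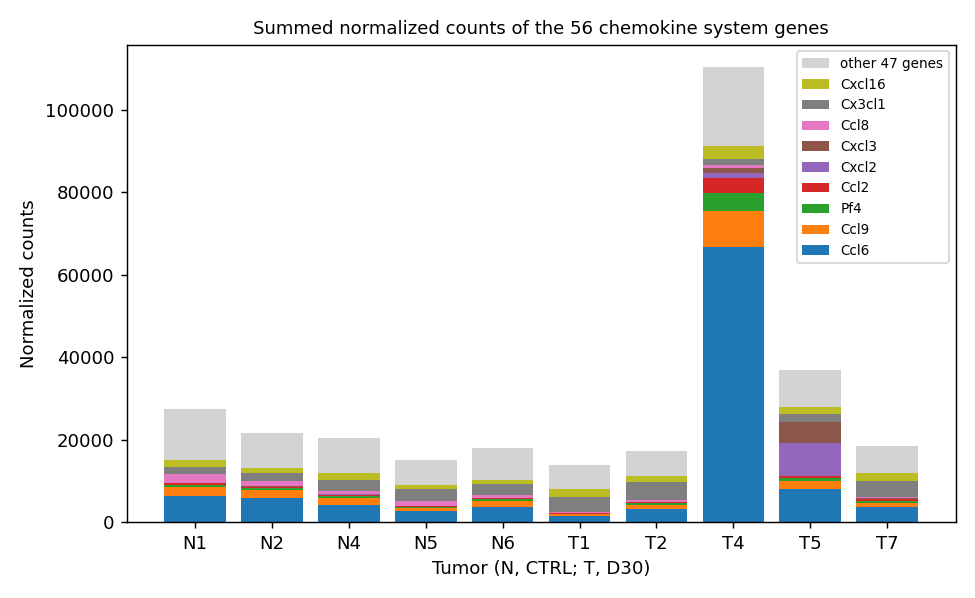
Summed normalized counts of the 56 genes in each tumor (vertical axis, from 0), with the CTRL tumors (N) on the left and the D30 tumors (T) on the right, split into 9 named genes and the other 47. T4 reached 110257, of which 60.6% was Ccl6, and T5 36896, of which 35.9% was Cxcl2 and Cxcl3, while the other 8 tumors stayed at or below 27496.

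Other measures set T4 and T5 apart as well. T4 had 841 reads of the Y-linked Ddx3y, Eif2s3y, Kdm5d and Uty, where none was found in the other 9, a limit of 3 reads each. These reads do not show the equal numbers of both sexes that the methods state, and the sex of each mouse is not known. T5 had reads of 20482 genes, where the others had reads of 23446 to 25912. The part of these differences in the chemokine levels was not tested. Fits without T4 and T5, chosen after their values were seen, are therefore given beside the results. Without them 12 of the 56 genes were called (21.4%, where 9.97% of all genes were). The 4 higher were Ccl20, Ccl28, Cx3cl1 and Cxcl17 (7.14%, where 5.09% of all genes were), and the 8 lower included Ccl8, Ccl11, Ccl12, Cx3cr1, Cxcl5, Cxcl15 and Cxcr3 (14.3%, where 4.87% were). The median log2 fold change of the 56 genes was then -0.46, where that of all genes was -0.03. Without T4 alone 6 of the 56 genes were called (10.7%, where 6.43% of all genes were), 1 higher (1.79%, where 3.32% were) and 5 lower (8.93%, where 3.11% were). Without T5 alone 4 were called (7.14%, where 3.54% of all genes were), 1 higher (1.79%, where 1.77% were) and 3 lower (5.36%, where 1.78% were).

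Of the 6 ELR CXC ligands, which attract neutrophils, 3 were higher and 3 lower in D30 tumors. Cxcl2 (chr5:90903871-90905938, GENCODE M21, GRCm38) had the highest level per kb of exon in this group, a mean of 490.0 normalized counts per kb. It had 33.7, 56.4, 116, 37.2 and 66.7 normalized counts in CTRL tumors and 70.9, 112, 1411, 8064 and 165 in D30 tumors. T4 and T5 stood far above the CTRL range and T7 above it by less, while T1 and T2 lay below N4. The log2 fold change of Cxcl2 was 2.93 ± 1.06 (SE) with an adjusted p of 0.172 (limma), and it was 0.96 without T4 and T5. Cxcl2 was the only member that edgeR called (adjusted p = 0.0472), where edgeR called 4.13% of all genes. DESeq2 called Cxcl2 (adjusted p = 0.000654) and Cxcl3 (adjusted p = 0.00220) higher, where it called 4.89% of all genes higher. Cxcl3, in the same cluster on chromosome 5, was also highest in T5 and T4, with 5181 normalized counts in T5, 1106 in T4 and 32.9 to 170.4 in the other D30 tumors, against 39 to 87.7 in CTRL tumors. Cxcl15 (lungkine), a ligand best known from lung, had 12.6, 15.2, 5.48, 9.74 and 4.28 normalized counts in CTRL tumors and 0, 0, 0, 6.87 and 0 in D30 tumors. Read counts of Cxcl15 were low in every tumor, and in 4 of the 5 D30 tumors no read was found, which allows up to 3. Its log2 fold change was -2.67 ± 0.66 (SE), with an adjusted p of 0.0502 (limma), and Cxcl15 was called lower without T5 and without T4 and T5. Cxcl1 had 225 to 426 normalized counts in CTRL and 211 to 502 in D30 tumors, and Ppbp, the platelet ligand, 19.2 to 41.2 and 14.9 to 237. Cxcl5 had 320.5 to 499 and 92.7 to 822, with T4 the highest of all tumors and the other 4 D30 tumors below every CTRL tumor. Without T4 and T5 its log2 fold change was -0.82 (adjusted p = 0.0221, limma). The receptors Cxcr2 and Cxcr1 were not called by limma, and edgeR and DESeq2 did not call Cxcr2 either and gave no adjusted p for Cxcr1. Cxcr2 had 43.4 to 61.0 normalized counts in CTRL and 50.1 to 254 in D30 tumors, highest in T5, and Cxcr1 had at most 4.58 in any tumor.

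The summed neutrophil markers were highest in T5, as Cxcl2 and Cxcl3 were. The 11 neutrophil marker genes were all measured and none was at 0 in T5. They summed to 737 to 3788 normalized counts in CTRL tumors, and to 902.7, 8030, 4015, 18378 and 1917 in the D30 tumors. In T5 7 of the 11 genes were highest, among them S100a8 with 5561 normalized counts, where T2 had 2337 and T4 1789. Camp, Ngp, Mpo and Elane, granule proteins made by immature neutrophils, were highest in T2, with Ngp at 1328 normalized counts there and 572 in T5. T2, with the next highest marker sum, had 112 normalized counts of Cxcl2. The immediate early genes Fos, Jun and Zfp36, named here after their values were seen, were also highest in T5 among the 10 tumors, with 7057, 10034 and 7334 normalized counts. All 11 neutrophil genes had positive log2 fold changes, with a median of 1.72. Limma called none of them, 5 had an unadjusted p under 0.05, edgeR called 1 and DESeq2 4. The part of these cells in the Cxcl2 and Cxcl3 levels was not tested. In bulk tumor RNA, fewer cells of a type and less RNA per cell cannot be told apart.

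Among the 4 ligands related to Ccl2, which lie in 1 cluster on chromosome 11, Ccl8 stood out. Ccl8 (monocyte chemoattractant protein of macrophages, chr11:82115185-82116799) had 2195, 1267, 819, 1079 and 778 normalized counts in CTRL tumors and 106, 293, 652, 21.7 and 283 in D30 tumors. Every D30 tumor lay below every CTRL tumor (two-sided exact permutation p = 0.00794, the smallest value that groups of 5 can give). This unadjusted p follows from the lack of overlap, which held for 6.19% of all genes tested, and adds no support of its own. The means were 1227 ± 576 (SD, n = 5) and 271 ± 243 (SD, n = 5), and the log2 fold change was -2.76 ± 0.70 (SE) with an adjusted p of 0.0557 (limma), just above the threshold. It was called lower with DESeq2 (adjusted p = 0.00664) and without T4 and T5 (-2.46, adjusted p = 0.00114, limma). Per kb of exon Ccl8 had the highest level in this group and the next highest after Ccl6 among all 56 genes, with 1466 normalized counts per kb. Ccl2 itself was led by T4. It had 272, 278, 273, 142 and 259 normalized counts in CTRL tumors and 123, 184, 3599, 337 and 357 in D30 tumors, and Ccl7 had 2221 in T4 where no other tumor passed 369. Ccl12 was highest in T4 too, with 832 normalized counts, while the other 4 D30 tumors had 34.3 to 170.4 and lay below all CTRL tumors, which had 199 to 432. T4 was thus the highest of the D30 tumors for all 4 ligands of this group, but for Ccl8 it still lay below the CTRL tumors. Without T4 and T5 Ccl12 had a log2 fold change of -1.24 and was called lower (adjusted p = 0.0211, limma).

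Ccr2, the receptor of Ccl2 on inflammatory monocytes, was lower in D30 tumors without passing the threshold. It had 830.0, 628, 579, 189 and 495 normalized counts in CTRL tumors and 234, 268, 372, 25.2 and 144 in D30 tumors. The groups overlap only through N5, which lay below T1, T2 and T4. This gave Ccr2 a log2 fold change of -1.66 ± 0.63 (SE) (adjusted p = 0.194, limma). Markers of monocytes and macrophages moved in the same direction for 9 of the 12 listed genes, with a median log2 fold change of -0.72, and Cd163 (from 308 ± 66.2 (SD, n = 5) to 83.9 ± 60.9 (SD, n = 5), log2 fold change -2.12 ± 0.42 (SE), adjusted p = 0.0174, limma) and Csf1r (from 2686 ± 485 (SD, n = 5) to 1346 ± 459 (SD, n = 5), log2 fold change -1.06 ± 0.26 (SE), adjusted p = 0.0449, limma) were called lower. Summed over the list, CTRL tumors had 20000.1 to 33518 normalized counts and D30 tumors 11685 to 30250.0, with T4 the highest D30 tumor. No gene of this list was at 0 in any tumor. The part of macrophage content in the levels of Ccl8, Ccr2 and Cx3cr1 was not tested.

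The 5 ligands Ccl3, Ccl4, Ccl5, Ccl6 and Ccl9 held the most abundant chemokine of these tumors. Ccl6, a mouse macrophage chemokine that binds Ccr1, had a mean of 5922 normalized counts per kb of exon, the highest of the 56 genes. It had 6460.4, 5868, 4229, 2658 and 3767 normalized counts in CTRL tumors and 1444, 3294, 66762, 8145 and 3678 in D30 tumors. T4 apart, the D30 tumors spanned the CTRL range, and the log2 fold change was 0.51 ± 0.77 (SE) (adjusted p = 0.784, limma) with T4 and T5 and -0.75 without them. Ccl9, its neighbor, had 8607 normalized counts in T4, 458.6 to 1944 in the other D30 tumors and 759.6 to 2055 in CTRL tumors. Ccl3 (macrophage inflammatory protein 1 alpha, chr11:83647844-83649355) had 48.4, 45.5, 93.2, 39 and 53.0 normalized counts in CTRL tumors and 76.1, 91.6, 231, 1393 and 195 in D30 tumors. Only N4 overlapped the D30 range, and T5 lay far above it. Ccl3 had a log2 fold change of 1.98 ± 0.64 (SE) with an adjusted p of 0.130 (limma), and without T4 and T5 it was 1.05 (adjusted p = 0.0917, limma). Ccl4, which lies next to Ccl3, had 36.8, 57.8, 39.3, 24.8 and 34.2 normalized counts in CTRL tumors and 51.4, 48.1, 152, 294 and 112 in D30 tumors. The groups overlap only through N2, and the order of the D30 tumors for Ccl4 is close to that for Ccl3, with T5, T4 and T7 on top of both. For Ccl4 the log2 fold change was 1.47 ± 0.48 (SE) (adjusted p = 0.136, limma). DESeq2 called both genes higher, with adjusted p values of 0.000654 for Ccl3 and 0.00658 for Ccl4. Ccl5 (RANTES), a product of T cells, had 132 to 245 normalized counts in CTRL and 73.3 to 192 in D30 tumors and a log2 fold change of -0.66.

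Ccr1, a receptor of monocytes and neutrophils that binds Ccl3, had the highest level per kb among the CC receptors (319 normalized counts per kb). It had 1352, 659, 574, 353 and 467 normalized counts in CTRL tumors and 339, 397, 3377, 1201 and 317 in D30 tumors. T4 was highest and N1 next, and T1, T2 and T7 lay at or below the low end of the CTRL range. For Ccr1 the log2 fold change was 0.21 ± 0.60 (SE) (adjusted p = 0.896, limma).

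Pf4 (platelet factor 4), made by platelets and also by tissue macrophages, had 612, 574, 617, 349 and 499 normalized counts in CTRL tumors and 204, 363, 4378, 709 and 484 in D30 tumors. Only T4 was far from the rest, and the log2 fold change was 0.31 ± 0.62 (SE) (adjusted p = 0.844, limma). The 9 listed platelet markers summed to 1589 normalized counts in T4, the lowest of the 10 tumors, where the other tumors had 1594 to 3594. The part of platelets or macrophages in the Pf4 level was not tested. Of the 8 platelet genes tested, 7 were higher and Gp9, a subunit of the platelet von Willebrand factor receptor, was called higher (log2 fold change 2.47 ± 0.38 (SE), adjusted p = 0.00482, limma), with 7.23 to 17.9 normalized counts in CTRL and 48.1 to 86.3 in D30 tumors.

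The interferon-induced Cxcl9 and Cxcl10 had values that overlapped between the groups, and those of their receptor Cxcr3 did not. Cxcl9, the higher per kb of the pair, had 279.8, 107, 192, 183 and 147 normalized counts in CTRL tumors and 101, 139.7, 493, 43.5 and 242 in D30 tumors. T4 was highest and T5 lowest, and the log2 fold change was -0.21 ± 0.53 (SE) (adjusted p = 0.880, limma). Cxcl10 had 49.6 to 190.0 normalized counts in CTRL and 48.1 to 147 in D30 tumors, with a log2 fold change of 0.07. The related Cxcl11 is annotated as a polymorphic pseudogene in M21 and is not among the 56 genes. Cxcr3 (chrX:101731535-101734269), carried by activated T and NK cells, had 54.7, 20.2, 24.7, 18.6 and 24.8 normalized counts in CTRL tumors and 4.11, 13.7, 1.16, 0 and 8.52 in D30 tumors. No D30 tumor reached the lowest CTRL tumor (exact permutation test, two-sided p = 0.00794, again fixed by the lack of overlap). In T4 and T5 Cxcr3 was at or under 3 reads. The means were 28.6 ± 14.8 (SD, n = 5) and 5.51 ± 5.66 (SD, n = 5) and the log2 fold change was -2.66 ± 0.69 (SE) (adjusted p = 0.0618, limma). DESeq2 gave an adjusted p of 0.0102 for Cxcr3. T cell markers were lower as well. All 12 T cell genes had negative log2 fold changes, with a median of -1.16, their sum was 589 to 931 normalized counts in CTRL and 263 to 417 in D30 tumors, and Il2ra was called (from 184 ± 20.5 (SD, n = 5) to 7.58 ± 11.4 (SD, n = 5), log2 fold change -5.51 ± 0.79 (SE), adjusted p = 0.00338, limma). Il2ra made up a large part of the fall in the T cell sum, which therefore leans on this gene. The defining Cd3e was read in every tumor, at 17.7 to 40.0 normalized counts in CTRL and 10.4 to 38.9 in D30 tumors, so that its groups overlap. All 8 tested NK genes were lower too, with a median of -1.30. None was called by limma, edgeR or DESeq2 and 3 had an unadjusted p under 0.05. Their sum was 94.0 to 190.4 normalized counts in CTRL tumors, 2.29 in T5 and 213 in T4, the highest of all tumors. The part of T and NK cell content in the Cxcr3 level was not tested.

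**Figure D3:**
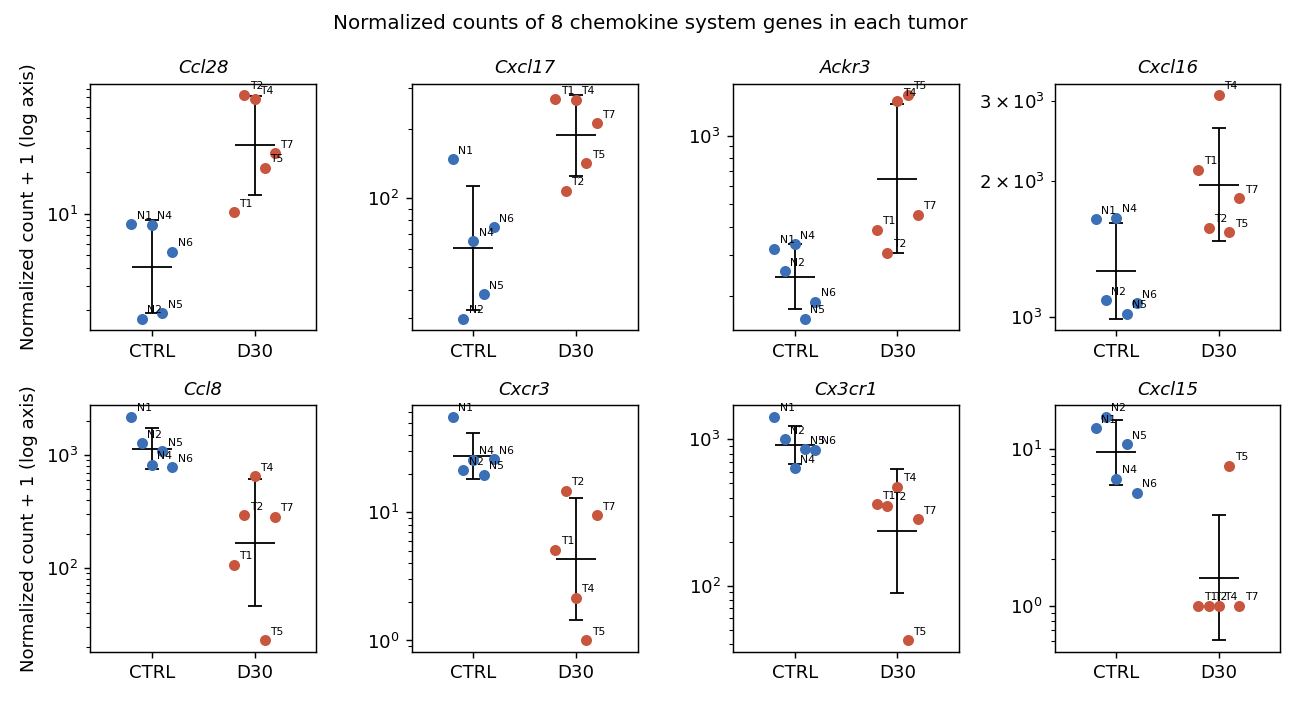
Normalized count + 1 on a log axis for 8 genes in each CTRL tumor (blue) and D30 tumor (red), with the mean and SD of the log2 values in black. The groups of Ccl28, Ccl8, Cxcr3 and Cx3cr1 do not overlap, and those of Cxcl17, Ackr3, Cxcl16 and Cxcl15 do.

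Ccl28, a mucosal chemokine secreted by epithelial cells that binds Ccr10 and Ccr3, was the only member that limma called over all 10 tumors. Ccl28 (chr13:119623819-119654359) had 7.36, 0.723, 7.31, 0.885 and 4.28 normalized counts in CTRL tumors and 9.25, 72.2, 67.1, 20.6 and 26.6 in D30 tumors. Every D30 tumor lay above every CTRL tumor, with T1 only just above N1 and N4 and with T2 and T4 the highest. It rose from 4.11 ± 3.27 (SD, n = 5) to 39.1 ± 28.6 (SD, n = 5) with a log2 fold change of 2.93 ± 0.68 (SE) (adjusted p = 0.0363, limma). The level was low, with a mean of 4.47 normalized counts per kb of exon against 691 for Cx3cl1, and N2 and N5 had 1 read each. The call did not hold with no filter on low counts or without N2, N5, N6, T2 or T7. There the adjusted p of Ccl28 reached 0.114 (limma), and edgeR did not test the gene. DESeq2 called Ccl28 higher (log2 fold change 3.28, adjusted p = 0.000221). Its receptor Ccr10 had 1.83 to 7.95 normalized counts in CTRL and 0 to 14.9 in D30 tumors.

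Cxcl17, another mucosal chemokine of epithelial cells, had 146, 28.9, 64.0, 37.2 and 73.6 normalized counts in CTRL tumors and 267, 107, 266, 141 and 209.8 in D30 tumors. Only N1 reached into the D30 range, where it passed T2 and T5. The means were 70.0 ± 46.4 (SD, n = 5) and 198 ± 72.8 (SD, n = 5), with a log2 fold change of 1.63 ± 0.44 (SE) (adjusted p = 0.0689, limma), and the gene was called higher without N1, with DESeq2 (adjusted p = 0.0122) and without T4 and T5 (1.59, adjusted p = 0.0470, limma). Cxcl16 is a membrane-bound chemokine and scavenger receptor whose receptor is Cxcr6. It had 1642, 1086, 1654, 1015 and 1070.4 normalized counts in CTRL tumors and 2111, 1570.4, 3095, 1537 and 1827 in D30 tumors. N1 and N4 exceeded T2 and T5, so that the groups overlap. Cxcl16 had a log2 fold change of 0.63 ± 0.24 (SE) (adjusted p = 0.190, limma). Cxcr6, which marks tissue-resident T and NKT cells, had 117, 36.1, 32.0, 34.5 and 38.5 normalized counts in CTRL tumors and 10.3, 21.8, 55.5, 0 and 16.0 in D30 tumors. N1 was the highest by far and T4 the next, and T5 had no read. For Cxcr6 the log2 fold change was -1.94 ± 0.87 (SE) (adjusted p = 0.274, limma), opposite in sign to that of Cxcl16.

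Cx3cl1 (fractalkine), the membrane-bound ligand of Cx3cr1, had the highest level per kb of the epithelial group. It had 1675, 2012, 2678, 2911 and 2570.3 normalized counts in CTRL tumors and 3578, 4467, 1524, 1940.3 and 3819 in D30 tumors. T1, T2 and T7 exceeded every CTRL tumor, while T4 was the lowest of all 10 tumors and T5 the third lowest. The log2 fold change was 0.28 ± 0.30 (SE) (adjusted p = 0.676, limma) and without T4 and T5 it was 0.76, where Cx3cl1 was called higher (adjusted p = 0.0206, limma). The receptor Cx3cr1, carried by patrolling monocytes and tissue macrophages, had lower values in D30 tumors. These were 1429.7, 1001, 632, 854 and 846 normalized counts for CTRL and 359, 352, 474, 41.2 and 283 for D30 tumors. All D30 tumors lay below all CTRL tumors (exact permutation test, two-sided p = 0.00794, again fixed by the lack of overlap), and T5 was lower than any other tumor. The means were 953 ± 297 (SD, n = 5) and 302 ± 161 (SD, n = 5), with a log2 fold change of -1.97 ± 0.54 (SE) (adjusted p = 0.0754, limma), and without T4 and T5 it was -1.48 (adjusted p = 0.00142, limma). DESeq2 gave Cx3cr1 an adjusted p of 0.00854. The annotated span of Cx3cr1 holds several other genes, and it overlaps an exon of Gm33858 on the opposite strand.

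Of the remaining ligands of this group, Cxcl14 had 495 to 1377 normalized counts in CTRL and 207 to 1654 in D30 tumors. Ccl27a had 344 to 486 and 390.3 to 771, and Ccl25, which attracts Ccr9-bearing T cells, had 412 to 548 and 197 to 571. Their log2 fold changes ran from -0.46 for Ccl25 to 0.38 for Ccl27a, and Xcl1, a product of T and NK cells, stayed under 10 normalized counts in all tumors. Epithelial markers stood beside Ccl28 and Cxcl17 as follows. Of 9 epithelial genes 8 were higher in D30 tumors, and the median of the 9 log2 fold changes was 0.63. Limma and edgeR called none, DESeq2 called 2 higher, and 8 had an unadjusted p under 0.05, 7 on the higher side and Epcam on the lower. Their sum was 224843 to 355380 normalized counts in CTRL and 377701 to 500656 in D30 tumors. Krt8, Krt18 and Krt19 were abundant in every tumor, while Epcam was low, at 15.9 to 191 normalized counts in CTRL and 0 to 62.5 in D30 tumors. The part of epithelial content in the Ccl28 and Cxcl17 levels was not tested.

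The ligands listed here for Ccr3, Ccr4, Ccr6 and Ccr8, which attract eosinophils, regulatory and helper T cells, numbered 6. Of these 2 had positive and 4 had negative log2 fold changes. Ccl17 led this group per kb and had 255, 80.2, 117, 76.1 and 71.9 normalized counts in CTRL tumors and 60.7, 158, 571, 88.1 and 82.0 in D30 tumors. T4 and N1 were highest, and the log2 fold change was 0.32 ± 0.57 (SE) (adjusted p = 0.822, limma). Ccl11 (eotaxin) had 75.7, 36.1, 78.6, 4.43 and 22.2 normalized counts in CTRL tumors and 2.06, 3.44, 37.0, 0 and 3.20 in D30 tumors. T4 alone among D30 tumors lay within the CTRL range, N5 was close to the other D30 tumors and T5 had no read. For Ccl11 the log2 fold change was -2.74 ± 0.94 (SE) (adjusted p = 0.152, limma), and without T4 and T5 it was -3.01 (adjusted p = 0.0217, limma). Ccl20, the ligand of Ccr6, had 51.4, 155 and 218 normalized counts in T1, T2 and T7, above every CTRL tumor (5.06 to 47.3), but 24.3 and 11.4 in T4 and T5. Ccl20 had a log2 fold change of 1.67 ± 0.79 (SE) (adjusted p = 0.295, limma) and without T4 and T5 it was 2.78 (adjusted p = 0.0125, limma). DESeq2 gave Ccl20 an adjusted p of 0.0382. Ccl24 had 29.2 to 159.8 normalized counts in CTRL and 28.8 to 598 in D30 tumors, highest in T4, and Ccl22 had 104 to 163 and 60.7 to 164. Ccl1 stayed under 10 in all tumors. The receptors Ccr3, Ccr4, Ccr6 and Ccr8 had at most 22.1 normalized counts in any tumor and log2 fold changes from -1.34 (Ccr6) to 0.45 (Ccr4).

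The 3 homeostatic ligands, which place lymphocytes and stem cells in lymphoid tissue and marrow, were all lower in D30 tumors, none called by limma, edgeR or DESeq2 and 2 with an unadjusted p under 0.05. Cxcl13, the B cell attractant of follicles and ligand of Cxcr5, led per kb. It had 81.0, 171, 268, 39.8 and 358 normalized counts in CTRL tumors and 1.03, 252, 17.3, 30.9 and 20.2 in D30 tumors. T2 lay within the CTRL range and the other D30 tumors below it. Its log2 fold change was -2.62 ± 1.01 (SE) (adjusted p = 0.201, limma). Ccl21a, a ligand of Ccr7, had 80.0, 31.1, 17.4, 2.66 and 21.4 normalized counts in CTRL tumors and 45.2, 3.44, 0, 0 and 0 in D30 tumors. In 3 D30 tumors no read was found, which allows up to 3 reads each, and T1 lay above all CTRL tumors but N1. For Ccl21a the log2 fold change was -2.84 ± 1.09 (SE) (adjusted p = 0.198, limma), and its reads are uncertain because near-identical copies of the gene exist. Cxcl12, made by fibroblasts and bound by Cxcr4, had 153 to 536 normalized counts in CTRL and 123 to 507 in D30 tumors with a log2 fold change of -0.61. The receptor Cxcr4 led the CXC receptors per kb and had 734, 312, 286, 306 and 285 normalized counts in CTRL tumors and 268, 367, 1742, 235 and 462 in D30 tumors. N1 and T4 stood above the rest of their groups, and the log2 fold change was 0.34 ± 0.48 (SE) (adjusted p = 0.770, limma). Ccr7 had 135 to 185 normalized counts in CTRL and 39.3 to 184 in D30 tumors, lowest in T4, Cxcr5 4.34 to 18.8 and 4.58 to 13.7, and Ccr9 6.20 to 17.9 and 0 to 17.2.

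Among atypical receptors Ackr3 (CXCR7), which scavenges Cxcl12, was higher and the other 3 were lower in D30 tumors. Limma and edgeR called none, DESeq2 called Ackr3, and Ackr3 and Ackr1 had an unadjusted p under 0.05. Ackr3 led the atypical receptors per kb and had 319.8, 254, 333, 158 and 187 normalized counts in CTRL tumors and 387, 307, 1413, 1504 and 451 in D30 tumors. T4 and T5 lay far above the rest, T1 and T7 just above every CTRL tumor, and T2 within the CTRL range. The log2 fold change was 1.43 ± 0.45 (SE) (adjusted p = 0.118, limma) and 0.65 without T4 and T5, and its adjusted p with DESeq2 was 0.00563. Ackr1, the Duffy antigen receptor of venular endothelium, had 13.7, 7.23, 35.6, 2.66 and 10.3 normalized counts in CTRL tumors and 14.4, 5.73, 0, 0 and 2.13 in D30 tumors. T4 and T5 had no read, and T1 and T2 lay within the CTRL range. Its log2 fold change was -1.83 ± 0.83 (SE) (adjusted p = 0.282, limma), and reads are uncertain since it overlaps an exon of Cadm3 on the same strand. Endothelial markers were lower for 7 of 9 genes, with a median log2 fold change of -0.64, a sum of 12122 to 19597 normalized counts in CTRL and 7053 to 10903 in D30 tumors, and Cdh5 called (from 11945 ± 2931 (SD, n = 5) to 4437 ± 1367 (SD, n = 5), log2 fold change -1.45 ± 0.26 (SE), adjusted p = 0.0117, limma). Cdh5 alone made up most of the mean endothelial sum in CTRL tumors and most of its fall, so that the sum largely follows this gene. The part of endothelial content in the Ackr1 level was not tested. Ackr2 had 20.5 to 46.9 and 5.78 to 31.9 normalized counts in CTRL and D30 tumors, and Ackr4 7.08 to 45.2 and 6.87 to 13.4.

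**Figure D4:**
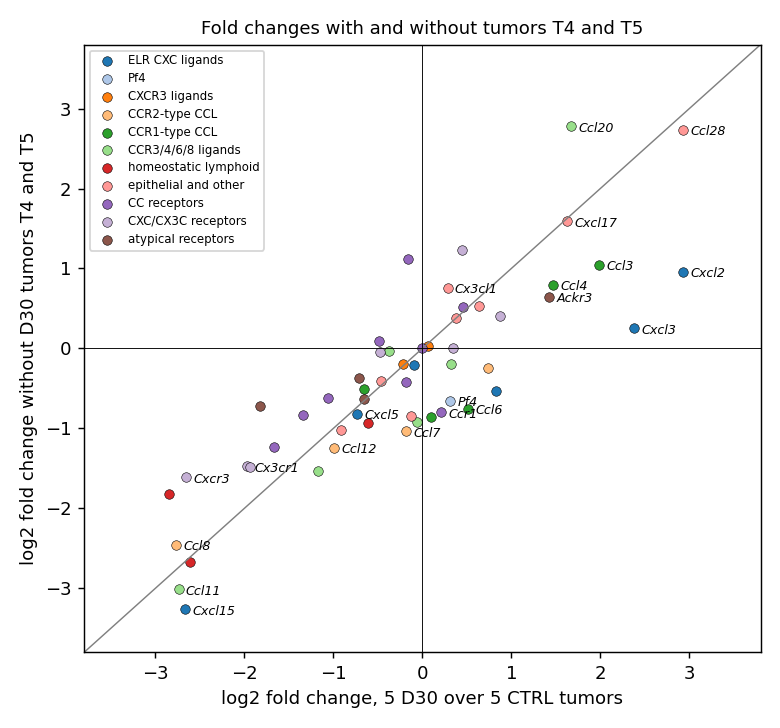
Log2 fold change of 55 of the 56 genes with all 10 tumors (horizontal axis) and without the D30 tumors T4 and T5 (vertical axis), colored by role, with a gray line where both are equal. Cxcl2, Cxcl3, Ccl3 and Ackr3 lie below the line, and Ccl20, Cx3cl1 and Cxcr3 above it.

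Genes in the 3 ligand clusters with the most members did not share 1 direction. The chromosome 11 cluster of Ccl2, Ccl7, Ccl11, Ccl12, Ccl8 and Ccl1 (chr11:82035571-82305690) had 5 genes lower and 1 higher, with a median log2 fold change of -1.08. The neighboring cluster of Ccl5, Ccl9, Ccl6, Ccl3 and Ccl4 (chr11:83525778-83664683) had 4 higher and 1 lower, with a median of 0.51. In the chromosome 5 cluster (chr5:90759360-90905938) 4 genes were higher and 3 lower, and log2 fold changes ran from -2.67 for Cxcl15 to 2.93 for Cxcl2. Reads of Ccl25, Ccl27a, Cxcl10, Cxcl16, Xcl1, Ccr9, Cx3cr1, Cxcr5 and Ackr4 are uncertain where they overlap exons of other genes, since it is not stated that reads were counted by strand.

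Genes around the chemokine system were compared as 4 lists. Of 32 tested inducers of chemokine transcription and their regulators, 26 were higher and 6 lower (median log2 fold change 0.23), and limma called 2 of them higher. Tnf, a cytokine that activates NF-kappaB, had 65.2, 44.1, 72.2, 36.3 and 53.9 normalized counts in CTRL tumors and 185, 209.6, 211, 97.3 and 112 in D30 tumors. Every D30 tumor exceeded every CTRL tumor, and the log2 fold change was 1.54 ± 0.33 (SE) (adjusted p = 0.0256, limma). Il1a, an alarmin of the same kind, had 57.9, 51.3, 111, 83.2 and 47.9 normalized counts in CTRL tumors and 153, 149, 324, 212 and 139.5 in D30 tumors. Its groups did not overlap either, with T4 the highest, and the log2 fold change was 1.46 ± 0.34 (SE) (adjusted p = 0.0352, limma). Of 33 genes of chemokine receptor signaling, 18 were higher and 15 lower. Pik3cg, the catalytic subunit of phosphoinositide 3-kinase gamma, fell from 192 ± 25.2 (SD, n = 5) to 87.4 ± 16.6 (SD, n = 5) (log2 fold change -1.13 ± 0.25 (SE), adjusted p = 0.0263, limma), and Pik3r5, its regulatory subunit, rose from 303 ± 59.9 (SD, n = 5) to 626 ± 171 (SD, n = 5) (log2 fold change 1.02 ± 0.24 (SE), adjusted p = 0.0379, limma). Of 19 genes that process or present chemokines, 6 were higher and 13 lower with a median of -0.11, and of 19 other chemoattractants and their receptors, 8 were higher and 11 lower with a median of -0.34. Limma called no gene of the last 2 lists. In the former 4 genes had an unadjusted p under 0.05, edgeR called 2 and DESeq2 3, and in the latter 6 had one, edgeR called 0 and DESeq2 2. Of all genes tested limma called 2.76%.

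Markers of the other cell types give the setting of these levels, and no part of theirs in a chemokine level was tested. Fibroblast genes were lower for 9 of 10 (median log2 fold change -0.86), dendritic cell genes for 9 of 10 (-0.74), B and plasma cell genes for 7 of 10 (-1.62), eosinophil and mast cell genes for 5 of 8 (-0.96) and lymphatic endothelial genes for 5 of 6 (-1.14), and limma and edgeR called none. Unadjusted p values under 0.05 numbered 7, 2, 3, 1 and 1 in the same order. All were on the lower side but for 2 of the 3 B and plasma cell genes, Pax5 and Sdc1, which had positive log2 fold changes. Sdc1 had 14681 to 19562 normalized counts in CTRL and 21054 to 36763 in D30 tumors, and is also listed among genes that process or present chemokines. The part of plasma cells in the Sdc1 level was not tested, so its rise is not read as a B or plasma cell signal. The dendritic cell list holds Ccl22, itself a chemokine ligand described above. DESeq2 called 2 fibroblast genes and 1 dendritic cell gene lower and 2 B and plasma cell genes higher. Adipocyte genes were lower for 6 of 8 (-0.27), with 0 unadjusted p values under 0.05 and no call by any of the 3 tools, and mesothelial genes were higher for 3 of 5 (0.29), with 2 such p values, none called by limma, 1 by edgeR and 2 by DESeq2. Genes of normal pancreas varied widely between tumors. Acinar genes summed to 276 to 68906 normalized counts in CTRL tumors, highest in N6 and N2, and 144 to 6743 in D30 tumors, highest in T4. Of 10 acinar genes 9 were lower, with a median of -4.65, none called by limma, edgeR or DESeq2 and 4 with an unadjusted p under 0.05. All 8 islet genes were lower, and Ppy, Gcg, Iapp and Ins1 were called (adjusted p from 0.0107 to 0.0355, limma), with Iapp at 1.77 to 130.1 normalized counts in CTRL tumors and no read in any D30 tumor.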

How the data were processed

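RNA from 10 orthotopic KPC tumors was sequenced in pairs from strand-specific libraries. The authors trimmed the reads with Trim Galore and aligned them with STAR 2.7.0e per the labels, which name GRCm39, while the methods of the study name hg38. The table lists mouse identifiers, and the methods list RSEM among their software without a role. The annotation and counting settings are not given in the sources used here. The deposited values are a normalized signal, counts divided by a size factor, as DESeq2 gives them. In every column 100.0% of values above 0 were whole multiples of 1 step (tolerance 0.01 reads), which recovered the reads per tumor (29192261 to 42122304). The precision of low genes is limited by these counts, with 3 reads taken as the floor. Counting error only is covered by that floor. Columns not used numbered 0.

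N columns were taken as CTRL by their letter and T columns as D30 as the only other group, and the column numbers do not match the labels. Identifiers were matched without version to GENCODE M21 (GRCm38; 52083 of 55359, 94.1%), whose positions are given, and promoter windows came from RefSeq GRCm38.p6. Limma 3.58.1 (R 4.3.3, mean-variance trend) was fitted to log2(normalized count + 1) for genes with a mean of at least 1, with Benjamini-Hochberg adjustment. The script was tested on simulated data. EdgeR 4.0.16 (quasi-likelihood) and DESeq2 1.42.0 on the recovered reads, pseudocounts of 0.5 and 5, a mean of at least 10, no filter, library-size and upper-quartile scaling, and leaving out each tumor were the alternatives. The methods of the study name DESeq2, at an adjusted p under 0.05, as its own test. Single values were compared with two-sided exact permutation tests.

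Members, roles and the pathway and cell lists were chosen with earlier results of these data known. Values in every tumor are given for members with an adjusted or unadjusted p under 0.05, with groups that do not overlap, or with the highest level per kb of their role. Of the other lists, called genes are named, at most 5 per list. Values of 1 member are not reported here, though counts and medians hold it.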

Additional observations from a re-analysis of the deposited data

Results flagged for a closer look

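For each of the 56 genes and each group of 5 tumors, the gap between the highest or lowest tumor and its nearest neighbor was divided by the range of the group and compared with Dixon's critical value of 0.71. Of 112 groups 33 passed it (29.5%), where 18% of the groups of all genes tested did. Chance gives about 5% (1 in 20) for normally distributed values, which normalized counts are not. On the log2(normalized count + 1) scale, tried after seeing the data, 7 of the 112 groups passed (6.25%), where 14.2% of those of all genes did. The 33 are not independent, since the same tumors recur.

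T4 was the tumor apart in 13 groups, each time as the highest D30 tumor. The gap divided by the range was 0.933 for Ccl2, 0.922 for Ccl7, 0.91 for Ccl24, 0.907 for Ccl11, 0.897 for Ccl6, 0.879 for Pf4, 0.849 for Cxcr4, 0.829 for Ccl12, 0.818 for Ccl9, 0.809 for Ccl17, 0.77 for Ccl1, 0.741 for Cxcl5 and 0.711 for Ccr1. For Ccl12 and Cxcl5, T4 lay above the CTRL mean and the other D30 tumors below it. T5 was the highest D30 tumor apart from the others for 6 genes, with 1 for Cxcl15 (the only D30 tumor with reads), 0.882 for Ccl3, 0.832 for Cxcl2, 0.792 for Cxcl3, 0.75 for Ccr4 and 0.74 for Cxcr2.

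The other D30 tumors were flagged 3 times. T2 stood apart for Cxcl13 (0.881) and Ccr6 (0.82), and T1 for Ccl21a (0.924). Among CTRL tumors N1 was the highest apart for 8 genes, Cxcr4 (0.939), Cxcr6 (0.923), Ccr6 (0.852), Cxcr3 (0.828), Ackr4 (0.804), Ccr3 (0.788), Ccl17 (0.753) and Ccl12 (0.735), 5 of which are receptors found on lymphocytes or eosinophils. N1 also had the highest summed T cell markers, 931 normalized counts, where the other CTRL tumors had 589 to 679.8. This was not particular to T cells. Among CTRL tumors N1 was also highest for summed neutrophil, monocyte and macrophage, NK, B and plasma, and eosinophil and mast cell markers. For dendritic cell markers it was not. N4 was the highest apart for Cxcl3 (0.856) and Ccl3 (0.74), and N5 the lowest apart for Ccl2 (0.861). The part of cell content in these values was not tested.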

How the results depend on the processing

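The 18 genes compared across settings, chosen for an unadjusted p under 0.05 or no overlap in these data, kept the sign of their log2 fold change in each alternative that gave a value (17 to 19 per gene). Of the other 38 members 19 changed sign in at least 1 alternative, for example Ccl6 from 0.51 to -0.75 without T4 and T5. Of 337 such values 300 stayed on the same side of the threshold, 31 passed it where they had not and 6 no longer passed it, all of them of Ccl28. The number of members called higher (1 with limma) was 0 with no filter, 8 with DESeq2, 4 without T4 and T5, and 0 to 2 with each tumor left out. It was 0 without N2, N5, N6, T2 or T7 and 2 without N1. The number called lower (0) was 1 with a pseudocount of 0.5, 1 with a pseudocount of 5, 4 with library-size scaling, 3 with DESeq2, 8 without T4 and T5, and 0 to 5 with each tumor left out, with 5 without T4, 3 without T5 and 1 without T1 or T2. Pathway genes called (4) numbered 7 with edgeR, 17 with DESeq2, 16 without T4 and T5 and 0 to 11 with each tumor left out, the latter without T4, 0 without N2, N5 or N6 and 1 without N1, T1, T2 or T7. The median log2 fold change of all genes turned positive with edgeR and with DESeq2 but not without N1. That of the members ranged from -0.46 to 0.14, and its sign turned with edgeR, with DESeq2 and without N1. It moved by less than 0.41, the SD between tumors of a group of the mean log2 level of the members. That SD is a different quantity and exceeds the size of the main value (-0.17), so that this bound does not show stability.

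With library-size scaling the median of all genes was -0.27 instead of -0.06, and 240 genes were called higher and 624 lower, where the main numbers were 344 and 334 and those of edgeR 457 and 250. All genes called numbered 1573 without T4, 2418 without T4 and T5 and 1842 with DESeq2. DESeq2 gave no adjusted p for 4 members, and edgeR tested 44. No paired analysis was possible because the columns carry no replicate number of the labels. With 5 tumors a group and T4 and T5 far from the rest, adjusted p values between 0.05 and 0.2 leave the difference of a gene undecided, and genes under about 10 normalized counts rest on few reads. The causes of these differences were not tested.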

Other observations

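Chemokine receptors outside the naming rule were also read. Ccrl2, an atypical receptor-like gene, had its highest values in T5 (267 normalized counts) and T4 (192), where the other tumors had 33.4 to 76.1. Xcr1, the Xcl1 receptor of cross-presenting dendritic cells, had 19.5 to 50.5 normalized counts in CTRL tumors, 7.46 to 23.6 in T1, T2, T4 and T7, and no read in T5 (log2 fold change -1.73, adjusted p = 0.277, limma). Cxcl11, an interferon-induced ligand annotated as a polymorphic pseudogene in M21, had 31 to 108 normalized counts in CTRL and 55.5 to 398 in D30 tumors, highest in T4 (log2 fold change 0.95, adjusted p = 0.375, limma).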
